A study of Mus musculus with 12 samples.

Results

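The genes described here are 9 genes tied to the resting state and the traffic of naïve T cells: the receptor gene S1pr1, the transcription factor genes Foxo1, Foxp1, Tcf7, Lef1, Bach2 and Satb1, and the antiproliferative genes Btg1 and Btg2. They were taken by symbol from a table of 20778 genes, and all 9 were found and passed the filter on low counts that left 12122 genes for testing. The RNA came from CD8 T cells picked out of the spleens of C57BL/6 mice with magnetic beads and then kept in culture for 6 hours. The mice are labelled as 6 weeks old, and the methods of the study give an older range. There were 4 groups with 3 libraries each. Cells left without treatment are called Naïve, and the others were given an antibody against the CD3 part of the T cell receptor (αCD3), the cytokine interferon-γ (IFNγ, 70 ng/ml) or LPS, the lipopolysaccharide of bacteria. αCD3 and LPS were used at 1 µg/ml by the sample labels, though the protocol text writes the unit as mg/ml. They name no genetic change in any group and do not say whether the 3 libraries of a group came from separate mice or cultures, so the p-values measure the spread between these libraries, which may be technical.

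A naïve T cell circulates between blood and lymphoid organs and stays small and out of the cell cycle until its antigen receptor is engaged. S1pr1 encodes the receptor for sphingosine-1-phosphate by which lymphocytes leave lymphoid organs. FOXO1 keeps genes of homing and survival on, among them Ccr7, Il7r and Klf2, and KLF2 in turn drives S1pr1. TCF-1, encoded by Tcf7, and LEF1 are related DNA-binding factors of T cell development and long-lived T cells, FOXP1 and BACH2 restrain activation and effector programmes, SATB1 organises chromatin in T cells, and BTG1 and BTG2 help to shorten the poly(A) tails of mRNAs.

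The libraries held 10196248 to 27610175 counts, and each of the 9 genes had at least 1058 counts in every library. All levels are in CPM, a gene's share of the counts of its library after TMM factors have adjusted for composition. The labelled cell type was checked against markers. All 10 T cell markers were detected, with summed levels of 1390 to 2550 CPM per library, but so were all 10 B cell markers, with 2050 to 3720 CPM, and in the Naïve libraries the B cell sum (3410 to 3720 CPM) lay above the T cell sum (1690 to 1880 CPM). The B cell sum was 2390 to 2780 CPM with αCD3, 2730 to 2840 CPM with IFNγ and 2050 to 3070 CPM with LPS. The T cell sum was 2400 to 2550 CPM with αCD3, 1710 to 1880 CPM with IFNγ and 1390 to 1600 CPM with LPS. B cells are known to express Bach2, Foxo1, Foxp1, Btg1 and Satb1 as well, and this list is not complete. The part of other cells in the changes given here, those of all 9 genes included, was not tested. In such bulk samples fewer cells of a type and less RNA per cell cannot be told apart. In every group the library numbered 1 differed most from the other two. Its erythroid marker sum was 137 to 227 CPM, against 534 to 1720 CPM in the libraries numbered 2 and 3, and its NK cell and myeloid sums were also the lowest of its group.

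The start regions of the genes are shown for Btg1, Btg2, Bach2 and Tcf7, the genes with a promoter that holds one of the motifs searched, all of which were called in some comparison of the unpaired or the paired fit. RefSeq (GRCm38.p6) gave promoters, the 250 bases before to 50 after a start site, for 8 of the 9 genes. They were searched on both strands for the FOXO motif GTAAACA, the TCF/LEF motif CTTTGAT, the NF-kB motif, the interferon-γ-activated site (GAS) TTCNNNGAA, the AP-1 and MARE core TGACTCA and the cyclic AMP response element (CRE) TGACGTCA. Each sequence is written 5′ to 3′ on the strand of the gene, with the match in capitals. In the promoter of Btg1 at chr10:96616751-96617050 (plus strand) it is a FOXO motif on the other strand, beginning 204 bases before the start site. In that of Btg2 at chr1:134079106-134079405 (minus strand) it is a CRE, 166 bases before the start site. In that of Bach2 at chr4:32417185-32417484 (plus strand), which lies inside the annotated gene, it is a GAS motif, 140 bases before the start site. One of the 2 RefSeq promoters of Tcf7, at chr11:52282546-52282845 (minus strand), also lies inside the annotated gene. Its match is a FOXO motif, 1 base after the start site.
Btg1: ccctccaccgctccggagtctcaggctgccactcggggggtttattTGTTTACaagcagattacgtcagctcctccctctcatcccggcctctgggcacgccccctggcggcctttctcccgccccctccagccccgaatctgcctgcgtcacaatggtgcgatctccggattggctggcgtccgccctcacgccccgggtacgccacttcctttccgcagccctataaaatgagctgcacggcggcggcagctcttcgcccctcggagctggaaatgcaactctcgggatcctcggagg
Btg2: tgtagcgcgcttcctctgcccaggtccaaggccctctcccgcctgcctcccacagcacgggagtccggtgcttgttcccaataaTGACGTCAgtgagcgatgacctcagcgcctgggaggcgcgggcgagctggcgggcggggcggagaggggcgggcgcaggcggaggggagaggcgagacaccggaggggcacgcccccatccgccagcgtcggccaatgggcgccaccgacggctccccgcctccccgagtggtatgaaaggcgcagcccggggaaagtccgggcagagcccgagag
Bach2: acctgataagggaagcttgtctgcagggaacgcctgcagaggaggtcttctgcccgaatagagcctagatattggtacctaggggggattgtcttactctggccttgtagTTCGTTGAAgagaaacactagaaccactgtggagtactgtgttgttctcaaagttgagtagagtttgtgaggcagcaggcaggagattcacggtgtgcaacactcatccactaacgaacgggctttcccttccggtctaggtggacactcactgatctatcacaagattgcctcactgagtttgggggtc
Tcf7: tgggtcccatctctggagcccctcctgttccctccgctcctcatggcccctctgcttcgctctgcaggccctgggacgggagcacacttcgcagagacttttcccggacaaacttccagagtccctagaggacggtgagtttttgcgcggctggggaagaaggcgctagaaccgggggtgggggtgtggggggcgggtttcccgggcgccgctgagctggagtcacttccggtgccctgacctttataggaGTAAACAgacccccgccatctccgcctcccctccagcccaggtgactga
Of all 32851 promoters of this length, 3.65% held the FOXO motif, 8.3% the GAS motif and 1.79% the CRE. The TCF/LEF motif (3.73% of promoters), the NF-kB motif (5.56%) and the AP-1 and MARE core (5.2%) were in no promoter of the 8 genes. A match is a string of letters and not evidence of binding.

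Per kilobase of the median annotated coding transcript, Tcf7 (444 CPM per kb) and Btg1 (430 CPM per kb) were the most abundant of the 9 genes in the Naïve cells. Satb1 (257), Foxp1 (202), S1pr1 (150) and Btg2 (104) followed, and Lef1 (60.7), Foxo1 (26.2) and Bach2 (24) were lowest on this scale. With the longest coding transcript the levels of Tcf7, Btg1, Satb1 and Foxp1 were 378, 244, 148 and 57 CPM per kb, which put Satb1 just below S1pr1, and Foxp1 below Btg2 (104) and Lef1 (58.9). Tested across the 4 groups together, 5 of the 9 genes differed at an adjusted p under 0.05 (edgeR's quasi-likelihood test with Benjamini-Hochberg adjustment over all tested genes), namely S1pr1, Lef1, Bach2, Btg1 and Btg2, beside 59.9% of all tested genes. Libraries with the same replicate number varied together, so a second fit paired them by number (the paired fit below), and there 8 of the 9 genes differed, all but Foxp1 (adjusted p = 0.0602), beside 72.2% of all genes. Against Naïve, 4 genes were called lower and 1 higher with αCD3 (15.7% and 22.9% of all tested genes), 3 were called lower with LPS (22.3% of all genes), and no gene passed the unpaired test over the 12 libraries with IFNγ (12.4% of all genes were called).

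**Figure D1:**
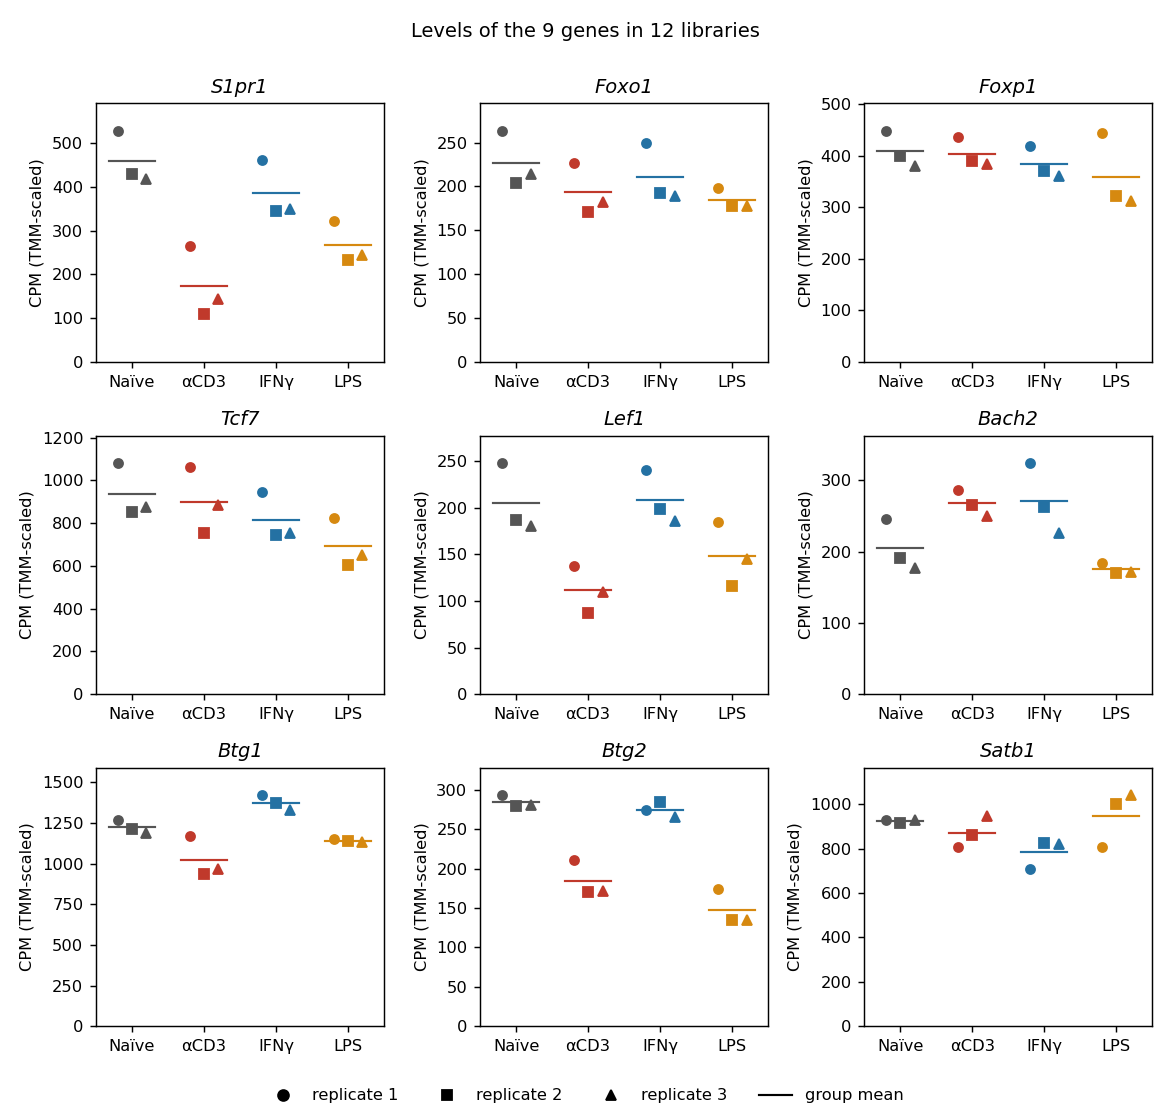
Level of each of the 9 genes (y axis, CPM scaled by TMM factors, starting at 0) in the Naïve, αCD3, IFNγ and LPS groups; each symbol is one library, shaped by replicate number, and each line is the mean of 3. S1pr1, Lef1 and Btg2 sit lower with αCD3 than in Naïve cells in all 3 libraries, Bach2 is high with αCD3 and IFNγ, and the library numbered 1 is the highest of its group in all 4 groups for 7 genes.

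S1pr1, the egress receptor gene (chromosome 3, 115710433 to 115715072, minus strand), had the widest range of the 9 genes. Its level was 527, 429 and 417 CPM in the Naïve libraries 1 to 3 and 264, 110 and 143 CPM with αCD3. With LPS it was 322, 232 and 245 CPM, and with IFNγ 460, 345 and 349 CPM. The αCD3 and LPS libraries all lay below the lowest Naïve library, whereas the IFNγ libraries overlapped with the Naïve range. With αCD3, S1pr1 fell 2.65-fold, a log2 fold change of -1.41 ± 0.28 (SE; adjusted p = 0.00319, edgeR), and this call held in all 20 alternative settings. The fall with LPS was 1.72-fold (log2 -0.78 ± 0.28, adjusted p = 0.0391) and was lost in 7 of the 20 settings, 6 of which left out 1 library (Naïve 1, 2 or 3, LPS 2 or 3, or IFNγ 3), with adjusted p up to 0.122. IFNγ gave a log2 difference of -0.25 with a 95% confidence interval of -0.87 to 0.37 (adjusted p = 0.637). Between treatments, S1pr1 was 2.23-fold higher with IFNγ than with αCD3 (adjusted p = 0.00853). Its level with αCD3 differed from that with LPS by -0.62 ± 0.28 on the log2 scale, which did not pass the test (adjusted p = 0.148) but did in the paired fit (log2 -0.68, adjusted p = 0.013). The same was true of IFNγ against LPS, where the log2 difference of 0.53 had an adjusted p of 0.155, and of 0.0224 in the paired fit. The order of means was thus Naïve, IFNγ, LPS and αCD3, and no neighbours in it differed in the unpaired fit over the 12 libraries. Unpaired, IFNγ against LPS passed with the libraries of these 2 groups alone (adjusted p = 0.0448), and both IFNγ and αCD3 against LPS passed without αCD3 library 1 (adjusted p = 0.0292 and 0.00586) and without replicate 1 of every group (0.00416 and 6.2e-04). The αCD3 library 1 stood nearest to the Naïve range, and its log2 ratio to Naïve library 1 was -1, against -1.96 and -1.54 in the other pairs.

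The other genes of homing, egress and survival did not move as one with S1pr1. Of 11 listed genes, 2 rose and 5 fell with αCD3 (22.9% of all tested genes rose and 15.7% fell), 2 rose and 1 fell with IFNγ (8.17% and 4.27%), and 3 rose and 6 fell with LPS (26.9% and 22.3%). In the paired fit 3 rose and 7 fell with αCD3, 3 rose and 2 fell with IFNγ, and 3 rose and 8 fell with LPS. The paired fit called 28.1% of all tested genes higher and 24.2% lower with αCD3, 13.5% and 11.4% with IFNγ, and 31% and 28.4% with LPS. Il7r, the interleukin-7 receptor chain that sustains naïve T cells, fell with αCD3 from a mean of 282 to 64.4 CPM (log2 -2.12 ± 0.26, adjusted p = 1.57e-04), and Klf2 fell from 747 to 408 CPM (log2 -0.87 ± 0.22, adjusted p = 0.0101). With LPS, Klf2 fell by 0.57 on the log2 scale (adjusted p = 0.0491), a call made in 11 of the 20 settings. Il7r had a log2 difference of -0.62 with LPS (adjusted p = 0.0573, and 5.81e-04 in the paired fit). It was called in 9 of the 20 settings, among them, without pairing, DESeq2 (adjusted p = 0.0169) and limma-voom (0.0369). Gpr183, a receptor for oxysterols that guides lymphocyte positioning, fell with IFNγ from 185 to 105 CPM (log2 -0.82 ± 0.1, adjusted p = 0.00058) and with αCD3 to 126 CPM (log2 -0.55, adjusted p = 0.00118). Ccr7, the chemokine receptor for entry into lymph nodes, rose with LPS (log2 0.72, adjusted p = 1.87e-05, in all 20 settings), and with αCD3 (log2 0.22, adjusted p = 0.0263) and IFNγ (log2 0.26, adjusted p = 0.0322). These last 2 calls were made in 14 and 12 of the 20 settings. Both were lost with library size alone (adjusted p = 0.206 and 0.223), with the libraries of the 2 groups alone and without Naïve library 2 or 3 or library 2 or 3 of the treated group, and that with IFNγ also with no filter and without αCD3 library 3. Cd69, whose product binds S1PR1 and takes it off the cell surface, rose from 140 CPM to 363 CPM with αCD3, 370 CPM with IFNγ and 620 CPM with LPS (adjusted p = 3.37e-04, 0.00132 and 1.48e-05). Cxcr4, a chemokine receptor, fell with LPS from 184 to 56 CPM (log2 -1.72 ± 0.36, adjusted p = 0.00284).

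Foxo1 (chromosome 3, 52268336 to 52353221, plus strand) was 263, 204 and 214 CPM in the Naïve libraries. It was 227, 171 and 182 CPM with αCD3, 249, 193 and 189 CPM with IFNγ, and 198, 178 and 178 CPM with LPS. The LPS libraries lay below the Naïve range, and the other groups overlapped with it. None of its differences passed the unpaired test over the 12 libraries, but within same-numbered pairs the αCD3 ratios were tight, at -0.21, -0.25 and -0.23 on the log2 scale, and the paired fit called Foxo1 lower with αCD3 (log2 -0.23, adjusted p = 0.215 unpaired and 0.00483 paired) and with LPS (log2 -0.29, adjusted p = 0.103 unpaired and 0.00116 paired). It was also called higher with IFNγ than with LPS in the paired fit (adjusted p = 0.0232, against 0.323 unpaired). Unpaired, the fall with LPS passed with library size alone, with the libraries of the 2 groups alone and without replicate 1 of every group (adjusted p = 0.0197, 0.0494 and 0.00621), and that with αCD3 only in the last of these (0.00575). The exons of Foxo1 overlap an antisense gene, Gm20402, and reads of the pair cannot be told apart without strand.

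Foxp1 (chromosome 6, 98925338 to 99522721, minus strand) varied least in its group means, which ranged 1.14-fold from 409 ± 35.1 CPM (SD, n = 3) in Naïve cells to 360 ± 73.3 CPM with LPS. Means with αCD3 and IFNγ were 403 ± 28.3 and 383 ± 31.9 CPM. No difference passed the unpaired test over the 12 libraries, and all groups overlapped. In the paired fit Foxp1 was called lower with LPS than in Naïve cells (log2 -0.20, adjusted p = 0.0214, against 0.255 unpaired), although the ratio was -0.01 in pair 1 and -0.31 and -0.28 in pairs 2 and 3. Unpaired, it passed with library size alone (adjusted p = 0.041), without LPS library 1 (0.0103) and without replicate 1 of every group (8.25e-04), and in the last 2 of these settings Foxp1 was also called lower with LPS than with αCD3 (0.031 and 0.00229) and with IFNγ (0.046 and 0.0134). Its reads are shared in part with the overlapping genes Gm20696 and Gm49348.

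The FOXO pathway genes, a list of 15 with regulators and targets of FOXO1, fell more often than they rose. With αCD3, 9 fell and 1, the kinase gene Akt2, rose, with a median log2 fold change of -0.21 against -0.02 over all tested genes. With LPS, 11 fell and none rose at an adjusted p under 0.05 (edgeR), with a median of -0.60 against -0.01, and with IFNγ 3 fell (5 in the paired fit). Of all tested genes 15.7% fell with αCD3, 22.3% with LPS and 4.27% with IFNγ (11.4% in the paired fit). For the rises with LPS the count was also 0 at an unadjusted p under 0.05, with DESeq2, with limma-voom and in the paired fit. Pik3ip1, an inhibitor of the PI3-kinase that restrains FOXO1, fell with αCD3 from 118 to 36.9 CPM (log2 -1.66 ± 0.30, adjusted p = 0.00161), and Klf3, a Krüppel-like repressor, fell from 212 to 85.6 CPM (adjusted p = 7.29e-04). Klf3 also fell with LPS by 0.68 (adjusted p = 0.0176, lost without Naïve library 1 or LPS library 2 or 3 at up to 0.0716). Inpp5d, the lipid phosphatase SHIP1, fell with LPS from 335 to 113 CPM (log2 -1.56, adjusted p = 3.45e-05) and with IFNγ to 227 CPM (log2 -0.56, adjusted p = 0.0474). The call with IFNγ was made in 13 of 20 settings and was lost without Naïve library 1, 2 or 3, IFNγ library 2 or 3, αCD3 library 3 or LPS library 3, with adjusted p up to 0.16. Inpp5d is also expressed in B cells, whose marker sum was lower in every treated library than in any Naïve one. The part of B cells in the falls of Inpp5d was not tested. Foxo4, a relative of Foxo1, fell with LPS by 0.80 on the log2 scale (adjusted p = 0.00278) and with αCD3 by 0.59 (adjusted p = 0.0173, lost without Naïve library 1 or αCD3 library 2 or 3 at up to 0.0726). With αCD3 Inpp5d fell by 0.61 (adjusted p = 0.0138, lost without αCD3 library 2 at 0.0612). Trib2 fell with IFNγ by 0.35 (adjusted p = 0.03), which held in 15 of 20 settings and was lost, with adjusted p up to 0.111, with the libraries of the 2 groups alone and without Naïve library 2 or 3 or IFNγ library 1 or 3. With αCD3 Trib2 fell by 0.27 (adjusted p = 0.0396), which held in 12 of 20 settings and was lost with no filter and without Naïve library 2 or 3, any 1 αCD3 library, IFNγ library 3 or LPS library 2 (adjusted p up to 0.124).

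**Figure D2:**
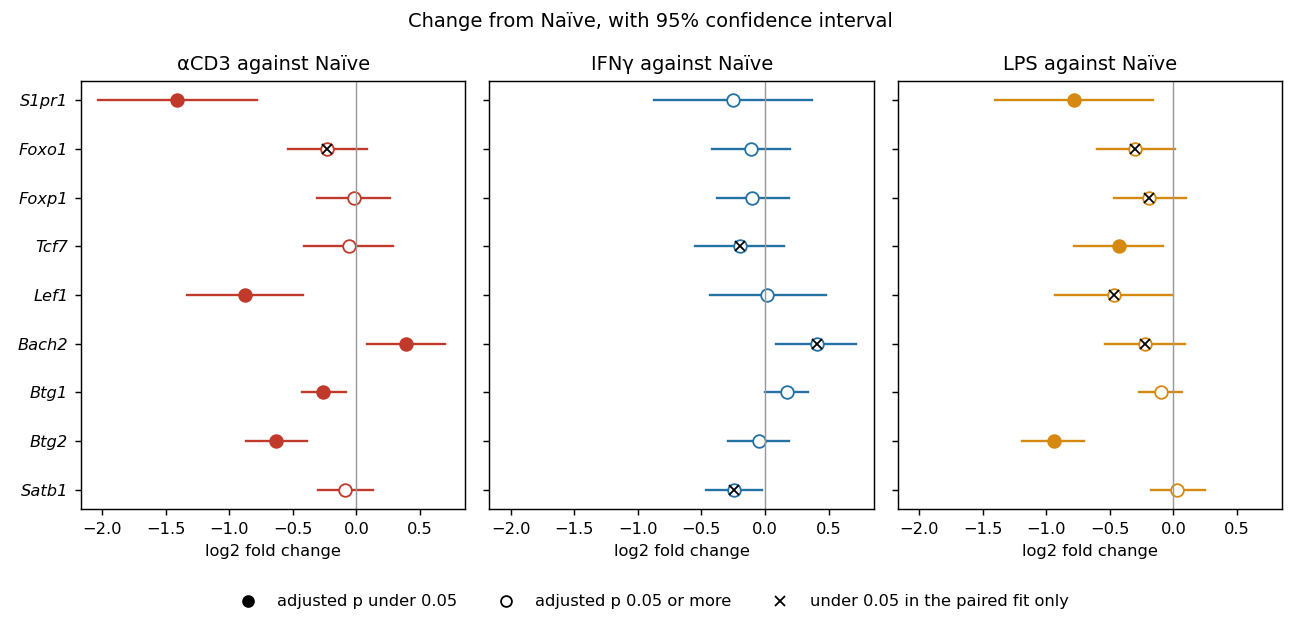
log2 fold change of each of the 9 genes against Naïve (x axis) with αCD3, IFNγ and LPS; points are estimates from the unpaired edgeR fit, bars their 95% confidence intervals, filled points have an adjusted p under 0.05 and crosses mark genes that pass in the paired fit only. Filled points are seen for 5 genes with αCD3, for none with IFNγ and for 3 with LPS, beside 38.6%, 12.4% and 49.3% of all tested genes called.

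Tcf7 and Lef1 encode related factors but did not move alike. Tcf7 (chromosome 11, 52252371 to 52283014, minus strand) was 1080, 850 and 875 CPM in the Naïve libraries and 1060, 752 and 883 CPM with αCD3. It was 944, 746 and 754 CPM with IFNγ, and 823, 605 and 652 CPM with LPS. Only the LPS libraries lay wholly below the Naïve range. Tcf7 fell 1.35-fold with LPS (log2 -0.43 ± 0.16, adjusted p = 0.0429). In 7 of 20 settings this call did not hold, each of which left out 1 library (Naïve 1 or 3, αCD3 3, IFNγ 2 or 3, or LPS 2 or 3), with adjusted p up to 0.158. With αCD3 its log2 difference was -0.06 with an interval of -0.41 to 0.29 (adjusted p = 0.792). With IFNγ the log2 ratios of the 3 pairs were -0.20, -0.19 and -0.21, and Tcf7 was called lower in the paired fit (adjusted p = 0.00947) but not in the unpaired one (0.487). The paired fit also placed Tcf7 with αCD3 above IFNγ (adjusted p = 0.0306) and LPS (adjusted p = 1.85e-04), and with IFNγ above LPS (adjusted p = 0.00139), none of which passed in the unpaired fit over the 12 libraries. Unpaired, αCD3 against LPS passed without LPS library 1 (adjusted p = 0.0482), and αCD3 and IFNγ against LPS without replicate 1 of every group (0.00568 and 0.032).

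Lef1 (chromosome 3, 131110471 to 131224356, plus strand) was 248, 187 and 181 CPM in Naïve libraries, 138, 87.5 and 110 CPM with αCD3, 241, 199 and 186 CPM with IFNγ, and 185, 116 and 145 CPM with LPS. The αCD3 libraries lay below all Naïve and IFNγ libraries, and the LPS libraries overlapped with both the Naïve and the αCD3 range. Lef1 fell 1.83-fold with αCD3 (log2 -0.88 ± 0.21, adjusted p = 0.00762) and was 1.87-fold higher with IFNγ than with αCD3 (log2 0.90, adjusted p = 0.00632), and both calls held in all 20 settings. With LPS the log2 difference from Naïve was -0.47 ± 0.21 (adjusted p = 0.0823, and 8.17e-04 in the paired fit). Unpaired, it passed with library size alone (adjusted p = 0.027), with DESeq2 (0.0373), without LPS library 1 (0.0275) and without replicate 1 of every group (0.0155). The paired fit also called Lef1 lower with αCD3 than with LPS (adjusted p = 0.00524, against 0.202) and higher with IFNγ than with LPS (adjusted p = 6.59e-04, against 0.0809), and the latter also passed unpaired with DESeq2 (0.033), without LPS library 1 (0.0278) and without replicate 1 of every group (0.0124). With IFNγ Lef1 differed from Naïve by 0.02, with an interval of -0.43 to 0.48. Lef1 overlaps the antisense gene Gm43352, and 85.4% of its 31-base words were unique to it, the lowest share of the 9 genes.

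The ratio of Lef1 to Tcf7 counts within a library does not depend on scaling between libraries. It was 0.229, 0.22 and 0.207 in Naïve libraries, 0.131, 0.116 and 0.124 with αCD3, 0.256, 0.267 and 0.247 with IFNγ, and 0.224, 0.191 and 0.222 with LPS. The αCD3 ratios lay below those of every other group and the IFNγ ratios above them, while LPS and Naïve overlapped. On the log2 scale the ratio differed among the 4 groups (exact permutation test over all 15400 partitions of the 12 libraries, p = 4.55e-04, adjusted over 3 ratios to 6.82e-04). For Btg2 to Btg1 the p was 6.49e-05, the smallest that this test can give (adjusted 1.95e-04). For Foxo1 to Foxp1 it was 0.29. These 3 pairs were chosen after the levels had been seen, and the p-values and their adjustment do not cover that choice.

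**Figure D3:**
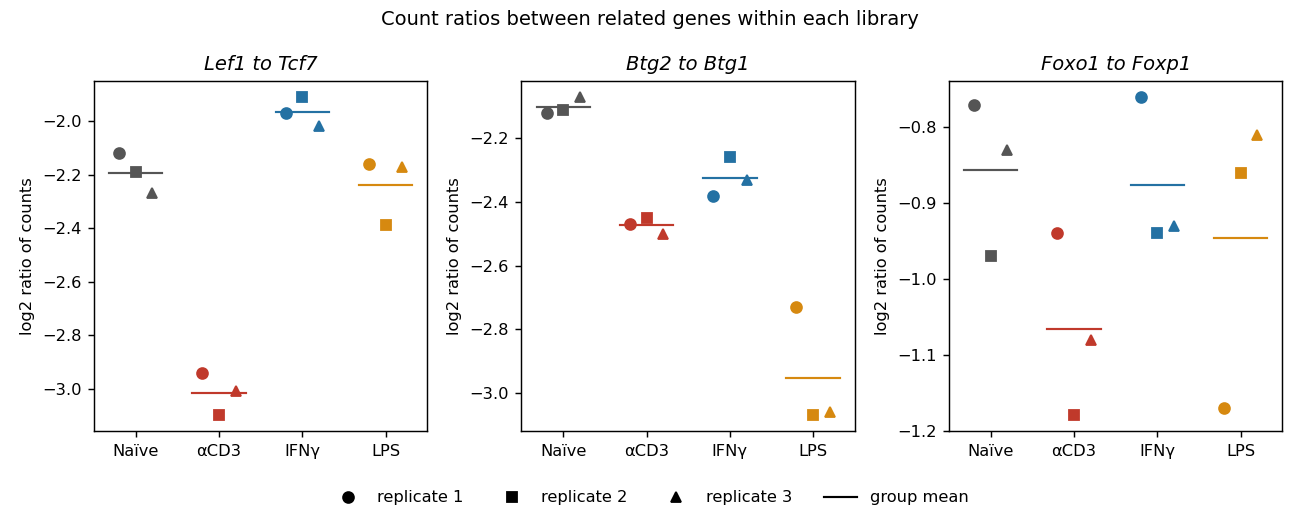
log2 ratio of counts (y axis) of Lef1 to Tcf7, Btg2 to Btg1 and Foxo1 to Foxp1 within each library, by group; symbols are libraries shaped by replicate number and lines are means of 3. Lef1 to Tcf7 is lowest with αCD3 (mean -3.02) and Btg2 to Btg1 is lowest with LPS (mean -2.95), while Foxo1 to Foxp1 overlaps among groups.

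The list of TCF and LEF partners held 15 genes, of which 3 fell with αCD3 (6 in the paired fit, and 5 with DESeq2 and with limma-voom), 1 rose with IFNγ (2 rose and 3 fell in the paired fit), and 6 fell and 1 rose with LPS. Of all tested genes, 15.7% fell with αCD3 (24.2% in the paired fit), 8.17% rose with IFNγ (13.5% rose and 11.4% fell in the paired fit), and 22.3% fell and 26.9% rose with LPS. Axin2, a feedback inhibitor and widely used target of the β-catenin pathway, fell with αCD3 from 17.7 to 10.3 CPM (log2 -0.78, adjusted p = 0.0183) and with LPS to 11.8 CPM (adjusted p = 0.0474). The call with αCD3 held in 17 of 20 settings and was lost without Naïve library 1 or αCD3 library 2 or 3 (adjusted p up to 0.0735). The call with LPS held in 12 of 20 and was lost without Naïve library 1, 2 or 3, αCD3 library 2 or 3, IFNγ library 3 or LPS library 2 or 3 (adjusted p up to 0.174). Aes, a short Groucho family member, fell by 0.57 with αCD3 and 0.58 with LPS on the log2 scale (adjusted p = 3.16e-04 and 2.03e-04). Bcl9, a β-catenin co-activator, rose with IFNγ by 0.37 (adjusted p = 0.0117), which held in 17 of 20 settings and was lost with library size alone (adjusted p = 0.0599) and without Naïve library 2 or 3. The median log2 fold changes of the list were -0.28, -0.06 and -0.32 with αCD3, IFNγ and LPS.

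Bach2 (chromosome 4, 32238804 to 32586108, plus strand), which encodes a repressor of effector genes, was the only one of the 9 genes that the unpaired fit over the 12 libraries called higher against Naïve. Its levels were 246, 191 and 177 CPM in Naïve libraries and 287, 266 and 250 CPM with αCD3. With IFNγ they were 324, 262 and 226 CPM, and with LPS 184, 170 and 171 CPM. The αCD3 libraries lay above the Naïve ones, and IFNγ overlapped with Naïve in level although it was higher in all 3 pairs. Bach2 rose 1.31-fold with αCD3 (log2 0.39 ± 0.14, adjusted p = 0.0493), a call at the edge of the threshold that was lost in 13 of 20 settings, with adjusted p up to 0.17, and that held in the paired fit (adjusted p = 0.0013). With IFNγ the log2 difference was 0.41 ± 0.14 (adjusted p = 0.0928, and 0.00321 in the paired fit, where the pair ratios were 0.40, 0.46 and 0.35). Unpaired, it passed with DESeq2 (adjusted p = 0.0433), without Naïve library 1 (0.0273) and without replicate 1 of every group (0.00538). The contrast with LPS was firmer. Bach2 was 1.55-fold higher with IFNγ than with LPS (log2 0.63 ± 0.14, adjusted p = 0.00476) and 1.53-fold higher with αCD3 than with LPS (log2 0.61 ± 0.14, adjusted p = 0.0126), and both calls held in all 20 settings. Between IFNγ and αCD3 the log2 difference was 0.02, with an interval of -0.30 to 0.33. With LPS against Naïve it was -0.22 (adjusted p = 0.213, 0.0353 in the paired fit and 0.0356 with library size alone). The antisense gene Bach2os overlaps Bach2. B cells express Bach2. Of the 10 B cell markers, 5 were called lower with αCD3, 2 with IFNγ and 3 with LPS, and 1 was called higher with LPS (edgeR). The part of B cells in the levels of Bach2 was not tested.

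Satb1 (chromosome 17, 51736187 to 51833290, minus strand) was 930, 916 and 928 CPM in Naïve libraries. It was 806, 859 and 949 CPM with αCD3, 710, 823 and 822 CPM with IFNγ, and 806, 999 and 1040 CPM with LPS. The IFNγ libraries lay below the Naïve ones, and the other groups overlapped with Naïve. The log2 difference with IFNγ was -0.24 ± 0.10 (adjusted p = 0.159, 0.02 in the paired fit, 0.0128 with library size alone and 0.0494 without replicate 1 of every group). Satb1 was 1.21-fold lower with IFNγ than with LPS (log2 -0.27 ± 0.10, adjusted p = 0.0484), a call made in only 5 of 20 settings although all 3 pairs had this direction (-0.18, -0.28 and -0.33). With αCD3 and LPS the log2 differences from Naïve were -0.09 and 0.03 (adjusted p = 0.52 and 0.799). Satb1 overlaps Gm36931 on its strand and Gm6934 on the other.

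Of 13 tested partners of BACH2, SATB1 and FOXP1 (of 14 listed), 3 rose and 3 fell with αCD3, 2 rose with IFNγ (3 rose and 2 fell in the paired fit), and 4 rose and 2 fell with LPS, beside the shares of all genes given above (22.9% higher and 15.7% lower with αCD3, 8.17% higher with IFNγ, and 26.9% and 22.3% with LPS). Mafk, which encodes a small Maf protein that pairs with BACH2 on DNA, rose in all treatments, from 55.7 CPM to 98.7 CPM with αCD3, 117 CPM with IFNγ and 131 CPM with LPS (adjusted p = 7.05e-04, 7.49e-04 and 3.25e-05). Prdm1, encoding the effector regulator Blimp-1 that BACH2 represses, fell with αCD3 by 0.68 on the log2 scale (adjusted p = 0.042), a call made in 8 of 20 settings and lost with limma-voom, with no filter, with the libraries of the 2 groups alone, with each αCD3 and IFNγ library left out, without Naïve library 2 or 3 and without LPS library 3 (adjusted p up to 0.161). Foxp4, a relative of Foxp1, rose with IFNγ by 0.40 (adjusted p = 0.00933, lost with library size alone at 0.0725) and with αCD3 by 0.42 (adjusted p = 0.00211). Hdac2, a histone deacetylase, rose with LPS by 0.82 and with αCD3 by 0.61 (adjusted p = 3.78e-05 and 4.02e-04).

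Btg1 (chromosome 10, 96617006 to 96622809, plus strand) had levels of 1270, 1210 and 1190 CPM in Naïve libraries and 1170, 934 and 966 CPM with αCD3. They were 1420, 1370 and 1330 CPM with IFNγ and 1150, 1140 and 1130 CPM with LPS. The αCD3 and LPS libraries lay below the Naïve range and the IFNγ libraries above it. Btg1 fell 1.19-fold with αCD3 (log2 -0.26 ± 0.08, adjusted p = 0.0248), which was lost in 5 of 20 settings, among them leaving out Naïve library 1 or 2 or αCD3 library 2 or 3, with adjusted p up to 0.105. It was 1.34-fold higher with IFNγ than with αCD3 (log2 0.42 ± 0.08, adjusted p = 0.0016, in all 20 settings) and 1.21-fold higher with IFNγ than with LPS (log2 0.27 ± 0.08, adjusted p = 0.0176). The latter was lost when IFNγ library 1, LPS library 2 or LPS library 3 was left out, with adjusted p up to 0.0562. Against Naïve, the log2 difference was 0.17 with IFNγ (interval 0.00 to 0.34, adjusted p = 0.209) and -0.10 with LPS (adjusted p = 0.302, and 0.0149 with library size alone). Btg1 was called higher with IFNγ in 2 of 20 settings, without αCD3 library 1 (adjusted p = 0.0495) and without replicate 1 of every group (0.0421), and in no other. In αCD3 against LPS its log2 difference was -0.15 (adjusted p = 0.201). This passed in 2 of 20 settings, without αCD3 library 1 (adjusted p = 0.0115) and without replicate 1 of every group (0.00389).

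Btg2 (chromosome 1, 134075170 to 134079120, minus strand) had the smallest adjusted p of the 9 genes across the groups (8.5e-05). It was 293, 280 and 281 CPM in Naïve libraries, 211, 170 and 171 CPM with αCD3, 274, 285 and 265 CPM with IFNγ, and 174, 135 and 135 CPM with LPS. All αCD3 and LPS libraries lay far below all Naïve and IFNγ ones, and the αCD3 and LPS ranges overlapped. Btg2 fell 1.55-fold with αCD3 (log2 -0.63 ± 0.11, adjusted p = 0.00123) and 1.92-fold with LPS (log2 -0.94 ± 0.11, adjusted p = 5.97e-05). It was higher with IFNγ than with αCD3 by 0.58 (adjusted p = 0.00191) and than with LPS by 0.89 (adjusted p = 8.94e-05). All 4 calls held in all 20 settings. With IFNγ the log2 difference from Naïve was -0.05, with an interval of -0.29 to 0.19. With αCD3 Btg2 was above its level with LPS by 0.32 ± 0.11 (adjusted p = 0.068, and 0.00971 in the paired fit), which passed unpaired with library size alone (0.0389), with DESeq2 (0.0252), without LPS library 1 (0.00866) and without replicate 1 of every group (0.00146). The ratio of Btg2 to Btg1 counts was 0.231, 0.231 and 0.237 in Naïve libraries, 0.18, 0.182 and 0.177 with αCD3, 0.193, 0.208 and 0.199 with IFNγ, and 0.151, 0.119 and 0.12 with LPS, with no overlap between any groups. Btg2 is known as an early response gene in many cells, and every 31-base word of its transcript was unique to it.

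Of the genes of the BTG/TOB family and of mRNA deadenylation, 16 were listed. With αCD3 and with LPS, 7 rose and none fell at an adjusted p under 0.05 (edgeR). Of all tested genes, 22.9% and 26.9% rose and 15.7% and 22.3% fell. In the paired fit 8 rose with αCD3 and 7 with LPS, and 2 fell in each case. That fit called 28.1% and 31% of all tested genes higher with αCD3 and LPS, and 24.2% and 28.4% lower. At an unadjusted p under 0.05 1 fell with αCD3 and 0 with LPS, as with DESeq2, while limma-voom gave 0 in both. The list had a median log2 fold change of 0.18 in both comparisons, which with library size alone was 0.07 with αCD3 and -0.03 with LPS, where the median of all genes was -0.13 and -0.22. With IFNγ 1 rose, beside 8.17% of all tested genes (1 rose and 2 fell in the paired fit, beside 13.5% and 11.4%). Btg3, a relative of Btg1 and Btg2, rose from 13.8 to 23.4 CPM with αCD3 (log2 0.76 ± 0.12, adjusted p = 8.3e-04) and to 26.7 CPM with LPS (log2 0.96, adjusted p = 1.3e-04). Pabpc1, the main poly(A)-binding protein, rose with αCD3 by 0.47 and with LPS by 0.44 (adjusted p = 2.63e-04 and 2.85e-04). Cnot6l, a deadenylase of the CCR4-NOT complex, rose with LPS by 0.61 (adjusted p = 0.0014) and with IFNγ by 0.60 (adjusted p = 0.00648).

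Among 16 other regulators of quiescence, 2 rose and 5 fell with αCD3 (4 and 6 in the paired fit, where 28.1% and 24.2% of all tested genes rose and fell), 2 rose with IFNγ (3 rose and 3 fell in the paired fit), and 1 rose and 10 fell with LPS, where the median log2 fold change was -0.40. Of all tested genes 22.9% rose and 15.7% fell with αCD3, 8.17% rose with IFNγ (13.5% rose and 11.4% fell in the paired fit), and 26.9% rose and 22.3% fell with LPS. Cblb, a ubiquitin ligase that raises the threshold of T cell activation, rose with αCD3 from 86.8 to 180 CPM (log2 1.05 ± 0.09, adjusted p = 1.23e-05) and with IFNγ to 142 CPM (adjusted p = 6.34e-04). Klf13 fell with αCD3 by 0.69 (adjusted p = 4.58e-04) and with LPS by 0.27 (adjusted p = 0.048), the latter in 12 of 20 settings and not without any 1 Naïve library, αCD3 library 3, IFNγ library 2 or 3 or LPS library 2 or 3 (adjusted p up to 0.152). Slfn2, whose loss breaks T cell quiescence in mice, rose with IFNγ by 0.53 (adjusted p = 0.0277), which held in 15 of 20 settings and was lost without Naïve library 1, 2 or 3 or IFNγ library 2 or 3 (adjusted p up to 0.11). With LPS Slfn2 rose by 0.43 (adjusted p = 0.0221), which was lost with library size alone and without Naïve library 1 or LPS library 2 or 3 (adjusted p up to 0.138). Nfatc2 and the cell cycle inhibitor gene Cdkn2c fell with LPS by 0.71 and 0.63 (adjusted p = 0.00161 and 0.0243), and the Cdkn2c call was lost without Naïve library 2 or 3 or LPS library 2 (adjusted p up to 0.0898).

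**Figure D4:**
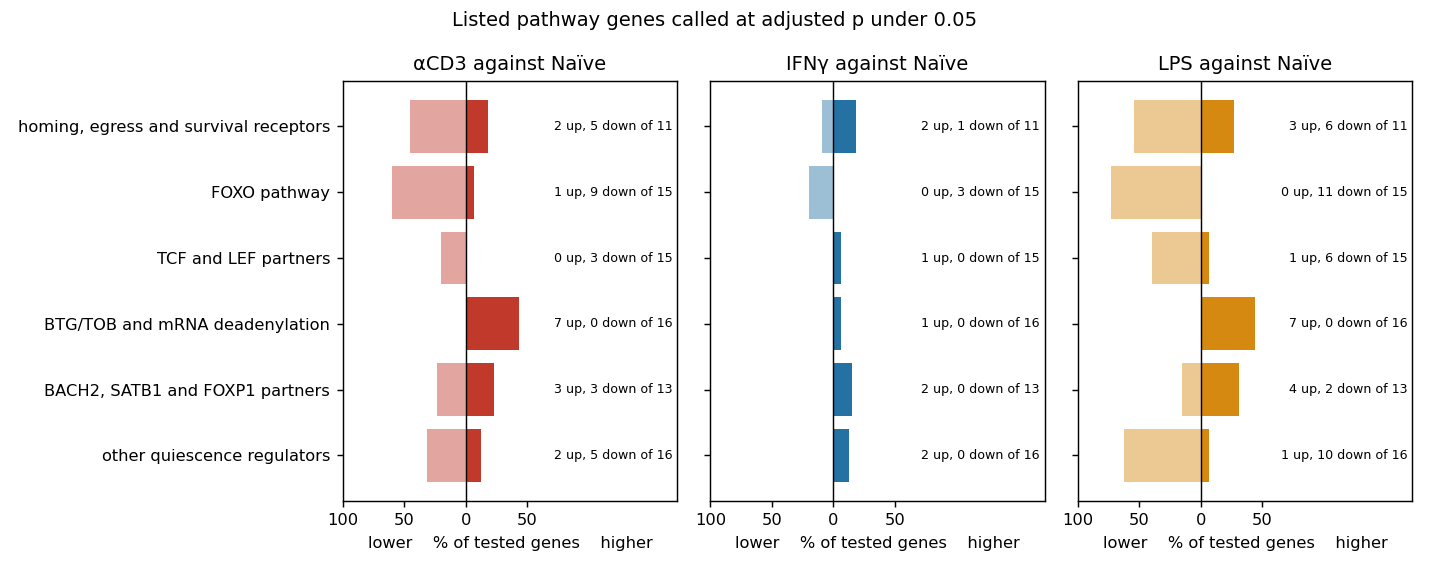
Share of the tested genes of 6 lists (x axis, percent) called higher (right, dark) or lower (left, pale) against Naïve at an adjusted p under 0.05, with the counts printed beside the bars. The FOXO pathway list leans to lower with αCD3 (9 of 15) and LPS (11 of 15), and the deadenylation list to higher (7 of 16 in both).

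Counted over the 9 genes, αCD3 against Naïve gave 5 calls, 1 higher and 4 lower, beside 38.6% of all tested genes called (6 calls and 52.4% in the paired fit). IFNγ against Naïve gave 0 calls with edgeR, beside 12.4% of all genes. At an unadjusted p under 0.05 there were 2 genes (Bach2 and Satb1), DESeq2 called 1 (Bach2), limma-voom 0 and the paired edgeR fit 3 (Bach2, Tcf7 and Satb1, beside 24.9% of genes). LPS against Naïve gave 3 calls, all lower, beside 49.3% called in either direction and 22.3% lower, and 7 in the paired fit, again all lower, beside 59.5% called and 28.4% lower. In all 3 same-numbered pairs 8 of the 9 genes were lower with LPS, as were 37.8% of all tested genes. Cell type markers moved in the same comparison. With LPS 7 of 10 T cell markers, 3 of 4 CD4 T cell markers, 6 of 12 myeloid, 3 of 10 B cell and 1 of 5 NK cell markers were called lower. 1 myeloid, 1 B cell and 1 dendritic cell marker were called higher, and 4 of 8 memory and effector CD8 markers were called higher and 1 lower. The memory and effector sum was 626 to 767 CPM in Naïve libraries and 924 to 1370 CPM with LPS, 796 to 1050 CPM with αCD3 and 770 to 1040 CPM with IFNγ. With αCD3 5 T cell markers were called higher and 1 lower, 5 B cell, 5 myeloid, 2 CD4 T cell and 1 dendritic cell markers lower, and 2 memory and effector CD8 markers higher and 2 lower. With IFNγ 2 B cell markers and 1 dendritic cell marker were called lower and 2 memory and effector CD8 markers higher. The part of these markers in the changes of the 9 genes was not tested. Directly compared, IFNγ against αCD3 gave 4 calls, all higher with IFNγ (37.2% of all genes were called and 15.8% were higher; 5 and 49.7% in the paired fit), IFNγ against LPS gave 4 (40.4% of all genes; 8 and 52.7% in the paired fit), and αCD3 against LPS gave 1 (19.4%; 5 and 34.7% in the paired fit). The comparisons share their groups and are not independent of each other. Of the 17 calls, 11 held in all 20 settings.

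**Figure D5:**
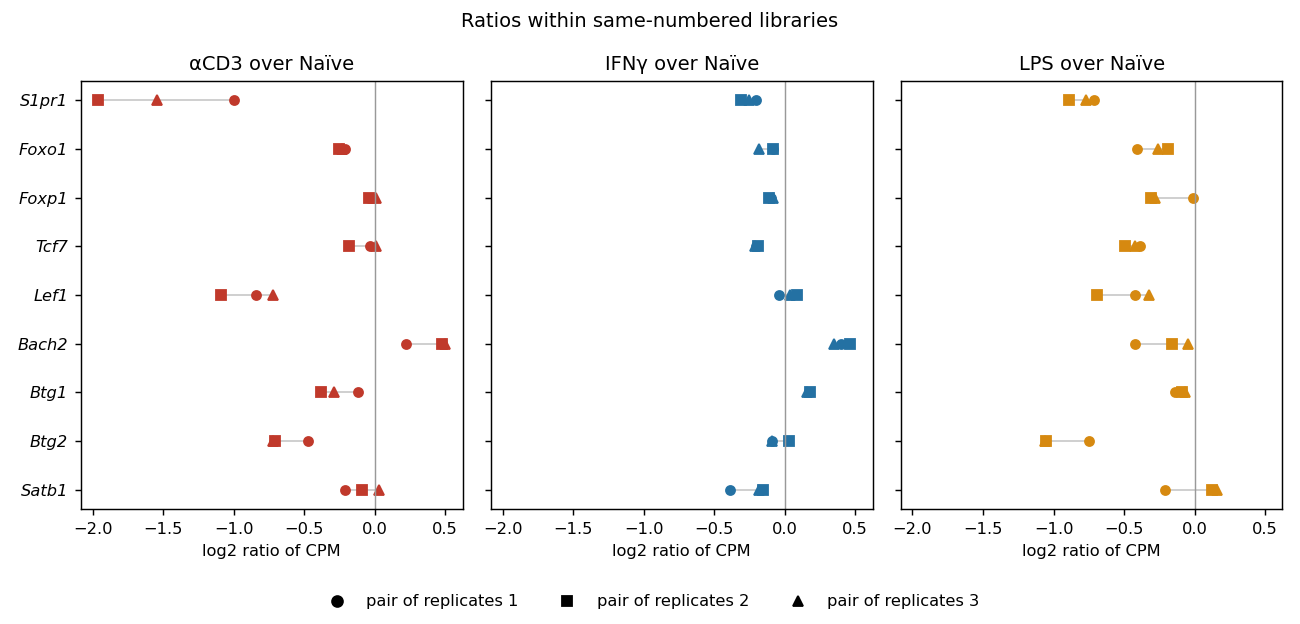
log2 ratio of CPM of each gene in a treated library over the Naïve library of the same replicate number (x axis) for αCD3, IFNγ and LPS; symbols give the replicate number and grey lines span the 3 ratios. For S1pr1 with αCD3 the ratios run from -1.96 to -1, for Tcf7 with IFNγ from -0.21 to -0.19, and for Btg2 with LPS from -1.06 to -0.75.

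Within groups, the libraries numbered 1 had the highest level in all 4 groups for S1pr1, Foxo1, Foxp1, Tcf7, Lef1, Bach2 and Btg1, in 3 groups for Btg2 and in 1 for Satb1. Their mean deviation from the group mean was 0.37 on the log2 scale for S1pr1, 0.29 for Lef1, 0.24 for Tcf7 and -0.12 for Satb1. As deviations from the group means over the 12 libraries, Tcf7 and Lef1 had a Pearson r of 0.97 and S1pr1 and Btg1 one of 0.94, whereas Satb1 had a negative r with the other 8 genes, from -0.46 to -0.88. These are descriptions, and the points share their libraries. The summed erythroid, NK cell, myeloid, and memory and effector CD8 markers were lowest in the library numbered 1 of every group, the last at 626 against 723 and 767 CPM in Naïve, 796 against 1050 and 991 CPM with αCD3, 770 against 1040 and 1030 CPM with IFNγ, and 924 against 1370 and 1360 CPM with LPS. The B cell sum was highest in the library numbered 1 with αCD3 (2780 against 2390 and 2390 CPM) and LPS (3070 against 2050 and 2110 CPM). With IFNγ it was 2840 against 2820 and 2730 CPM, and in Naïve 3590 against 3720 and 3410 CPM. The part of these markers was not tested. Without the 4 libraries numbered 1, the edgeR test called 9 of the 9 genes as different among the groups, beside 66.4% of all genes tested there.

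The genes whose log2 CPM followed each of the 5 differing genes most closely over the 12 libraries were searched among 9451 genes, and r is a description only. For S1pr1 they were Il6ra (Pearson r = 0.987), the interleukin-6 receptor chain, and Bsdc1 (0.985). For Lef1 they were Dgka (0.981), a diacylglycerol kinase that dampens T cell receptor signals, and Klf2 (0.978). Dgka had means of 360, 204, 380 and 249 CPM in Naïve, αCD3, IFNγ and LPS. For Bach2 they were Trim59 (0.941) and Stambpl1 (0.928), for Btg1 Lrif1 (0.979) and Rapgef4 (0.973), and for Btg2 Castor2 (0.992) and Ids (0.982).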

How the data were processed

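mRNA libraries of 12 CD8 T cell samples were deposited by the authors as one table of estimated counts per gene. Per the labels and methods, reads were assigned with Kallisto against mm10, and DESeq2 1.24.0 was used afterwards; summing of transcripts to genes and the annotation release are not given in the sources used here. The expected counts were rounded to whole numbers. Genes were filtered with filterByExpr, scaled by TMM and tested with edgeR 4.0.16 (quasi-likelihood, robust, R 4.3.3) in 1 fit over the 12 libraries with group as the only term, and p-values were adjusted by Benjamini-Hochberg over 12122 genes, with 0.05 as the threshold. SE is the size of the log2 fold change divided by the root of F. The fits were tested on simulated data. The 9 genes and the lists were chosen with earlier results of these data known. Further genes were named by rule: the 2 called genes of each list with the largest change against Naïve at a mean of 5 CPM or more, the 2 genes most correlated with each differing member over log2(CPM + 1), and Ccr7, Klf2 and Il7r. One gene of the homing list is not reported here and was left out of its counts.

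Replicate numbers in the labels were checked for pairing: deviations from the group means of same-numbered libraries correlated at 0.21 to 0.54 in 18 of 18 comparisons, all over 0.1. For differently numbered libraries the highest correlation was 0.16. A fit with the replicate number as a block was therefore run beside the main one. No pair of libraries of a group agreed within sampling noise (chi-square per degree of freedom 4.66 to 55.8). Alternatives were scaling by library size alone or DESeq2-type factors, no filter, DESeq2 1.42.0, limma-voom (limma 3.58.1), the block, pairs of groups alone and each library left out, and, chosen after seeing the data, leaving out replicate 1 of every group. Gene positions and word uniqueness came from GENCODE M21 (GRCm38), in which 20612 of 20778 symbols matched. Pair ratios used CPM + 0.5.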

Additional observations from a re-analysis of the deposited data

How the results depend on the processing

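Of the 17 calls on the 9 genes, 11 held in all 20 alternatives. Pairing by the replicate block raised the number of the 9 genes called from 0 to 3 with IFNγ against Naïve, from 3 to 7 with LPS against Naïve, from 4 to 8 in IFNγ against LPS, from 1 to 5 in αCD3 against LPS and from 5 to 8 over the 4 groups, and of all genes from 1508 to 3020 (IFNγ against Naïve) and 2351 to 4202 (αCD3 against LPS); it ended no call on the 9 genes, and every call it added is given above. Without replicate 1 of every group (chosen after seeing the data) these counts were 3, 6, 8, 6 and 9, and 2837 and 3582 genes. With library size alone they were 1 (IFNγ against Naïve), 8 (LPS against Naïve) and 2 (αCD3 against LPS), and 2279 genes with IFNγ; that scaling moved the median of all genes from -0.02 to -0.13 with αCD3, from -0.02 to -0.16 with IFNγ and from -0.01 to -0.22 with LPS, and the share of calls that were higher from 59.3% to 44%, 65.6% to 31.4% and 54.7% to 32.8%. In IFNγ against LPS that share went from 44.6% to 52.6%, and in αCD3 against LPS from 49.7% to 68.8%. DESeq2 called 1 (IFNγ against Naïve) and 2 (αCD3 against LPS). Fits on pairs of groups alone called 3 with αCD3 against Naïve and 1440 genes in αCD3 against LPS. Leaving out 1 library gave 3 to 5 of the 9 genes with αCD3, 0 to 1 with IFNγ, 1 to 5 with LPS, 4 to 4 in IFNγ against αCD3, 2 to 6 in IFNγ against LPS, 1 to 4 in αCD3 against LPS and 5 to 8 over all groups, and 787 to 1651 genes with IFNγ and 1429 to 2590 in αCD3 against LPS.

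Signs turned for differences that were not called in the fit over the 12 libraries; of these, Foxp1 in IFNγ against LPS was called without LPS library 1 and without replicate 1 of every group. With library size alone, Lef1 with IFNγ was -0.11, Satb1 with LPS -0.18 and Bach2 in IFNγ against αCD3 -0.01. Without the filter on low counts Lef1 with IFNγ was 0 and Bach2 in IFNγ against αCD3 -0.01, and the latter was 0 with limma-voom and -0.11 without replicate 1 of every group, where Foxo1 in αCD3 against LPS was -0.01. Leaving out 1 library gave ranges of -0.08 to 0.05 for Foxp1 and -0.19 to 0.06 for Tcf7 with αCD3, -0.26 to 0.01 for Foxo1, -0.1 to 0.18 for Lef1, -0.24 to 0.01 for Klf2 and -0.21 to 0.02 for Il7r with IFNγ, -0.03 to 0.14 for Satb1 with LPS, -0.03 to 0.25 for Foxo1 and -0.14 to 0.13 for Bach2 in IFNγ against αCD3, 0 to 0.27 for Foxp1 in IFNγ against LPS, and -0.07 to 0.14 for Foxo1 in αCD3 against LPS. The cause was not tested. Medians of the gene lists moved by more than the spread between replicates in 69 cases and by less in 651; with library size alone those against Naïve were lower throughout, as was the median of all genes. The ratios of Lef1 to Tcf7 and Btg2 to Btg1 had p from 4.55e-04 to 0.00136 and from 6.49e-05 to 3.25e-04 with 1 library left out (exact permutation tests), and 0.00521 and 0.00174 with permutation within the replicate block. For Btg2 to Btg1, 6.49e-05 and 0.00174 are the smallest p these tests can give. The pairs were chosen after the levels had been seen, which these p-values do not cover.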
